A study of Saccharomyces cerevisiae with 17 samples.

Results

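Aminoacyl-tRNA synthetases were examined as a set of 35 budding yeast genes, taken by their systematic names from the 5797 gene identifiers that each deposited count table listed. The set held 21 cytosolic and 14 mitochondrial enzymes. Of the cytosolic genes, 5 (ALA1, GRS1, HTS1, VAS1 and CRS1) also supply the mitochondrial enzyme for the same amino acid. All 35 were present in every table. The RNA came from wild-type Saccharomyces cerevisiae of strain BY4741, a haploid laboratory strain, grown in YPD, a rich glucose medium, to an optical density of 0.8. RNA 5′ ends were read by SMORE-seq, which ligates an adapter to the 5′ end of each transcript. The 3 groups shared strain, genotype and medium and differed in how the RNA was prepared. In the ribo depletion group ribosomal RNA was removed (3 samples, deposited as 1 table). In the TAP group poly(A) RNA was treated with tobacco acid pyrophosphatase, which opens the cap (1 library). In the CIP/TAP group poly(A) RNA was also treated with calf intestinal phosphatase, which removes the exposed 5′ phosphates of uncapped RNA (1 library). Neither enzyme is named in the titles of the ribo depletion samples. The other 12 of the 17 samples, from chromatin, were not analysed here.

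A synthetase joins an amino acid to the tRNA that reads its codons, which is the step at which the genetic code is matched to amino acids. Yeast encodes most of these enzymes in separate nuclear genes for the cytosol and the mitochondrion. A few genes make both forms from alternative start sites. Mitochondrial glutaminyl-tRNA is made by another route, in which GUS1 charges the tRNA with glutamate and an amidotransferase converts it.

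Series of 3 values follow the order ribo depletion, TAP, CIP/TAP throughout. The tables totalled 2821480, 864536 and 1097457 counts. An identifier at 0 could hold up to 3 counts, equal to 1.06, 3.47 and 2.73 CPM (counts scaled so that each table has the same total). With 1 table or library in each group there was no replicate check. Intervals of shares and of single ratios are exact 95% Clopper-Pearson intervals, cover counting error only, and treat reads as independent molecules. Those of medians are order statistics over the measured genes. They describe the spread between genes, which are not replicates. The groups were not tested against each other. Most counts in these tables lay under identifiers whose nearest upstream gene is divergent, meaning on the opposite strand and transcribed away. A count listed under a synthetase is therefore given as a count under that identifier and not as the expression of the gene.

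Counts under the synthetase identifiers ranged from 0 to 33070. In ribo depletion, 15 of the 35 had at least 10 counts (42.9%), against 31.5% of all identifiers. In TAP 18 did (51.4%), against 37.1%, and in CIP/TAP 18 did (51.4%), against 33.0%. At least 10 counts in any table were listed for 23 synthetases (65.7%, 47.7% over all identifiers) and in every table for 12 (34.3%, 22.2%). These shares were above the background in each table, and the set was not tested against it.

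**Figure D1:**
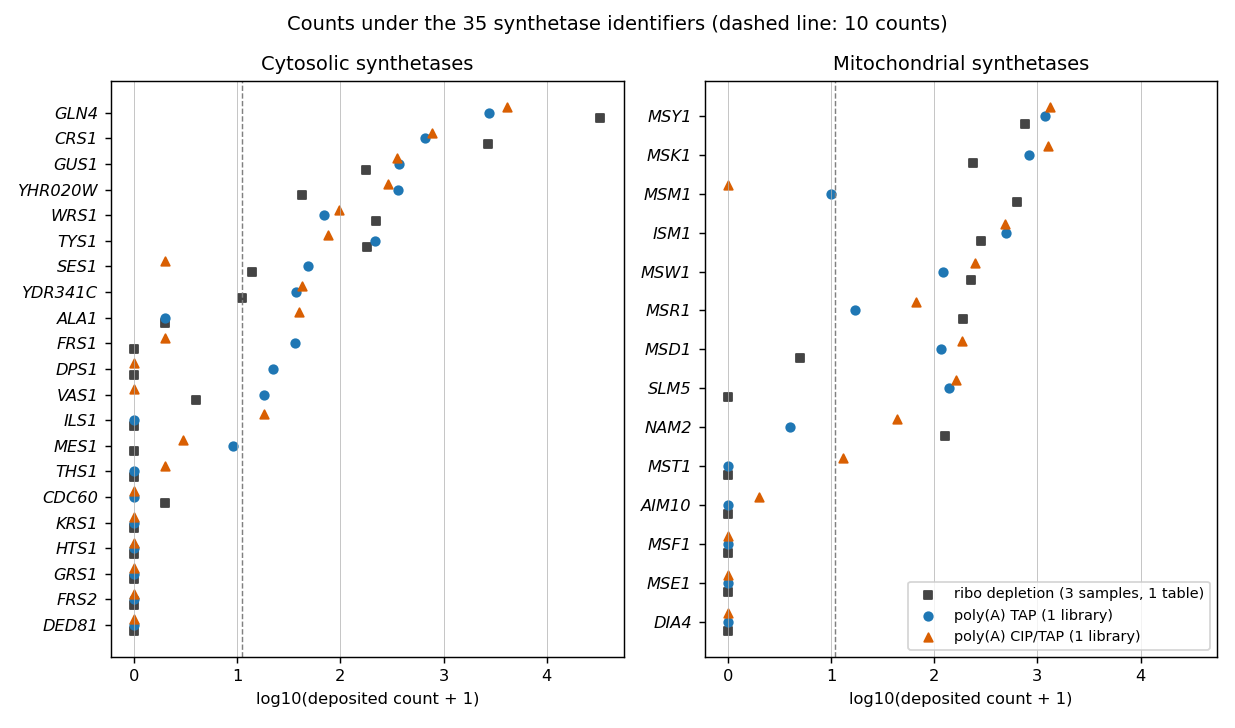
Deposited counts (log10 of count + 1) under each of the 35 synthetase identifiers, cytosolic at left and mitochondrial at right, in ribo depletion (squares), TAP (circles) and CIP/TAP (triangles). The dashed line marks 10 counts; GLN4 stands highest in every table and 8 genes lie at 0 in all 3.

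The cytosolic genes were led by GLN4, the glutaminyl-tRNA synthetase (YOR168W, R64 chromosome XV, 649303 to 651732). It had 33070, 2767 and 4077 counts and ranked 13, 50 and 46 among all identifiers. GLN4 alone made up 85.2% of the synthetase counts in ribo depletion, and less in the poly(A) libraries, at 36.7% and 42.7%.

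The set as a whole took 1.38% of the ribo depletion counts (1.36 to 1.39%), 0.872% of TAP (0.853 to 0.892%) and 0.87% of CIP/TAP (0.853 to 0.887%). Without GLN4 these shares were 0.204% (0.199 to 0.209%), 0.552% (0.536 to 0.568%) and 0.498% (0.485 to 0.512%). The 35 genes are 0.604% of the identifiers. As shares of each total, the order of the tables thus turned on 1 gene, with ribo depletion highest when GLN4 was included and lowest without it. Scaling by totals set the median log2 ratio of TAP over ribo depletion 1.28 higher, over all identifiers, than the scaling used for ratios below. For CIP/TAP over ribo depletion it was 1.05 higher. The order of the tables under that other scaling was not tested.

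CRS1, the cysteinyl-tRNA synthetase (YNL247W, chromosome XIV, 182875 to 185178), had 2665, 665 and 768 counts. GUS1, the glutamyl enzyme (YGL245W, chromosome VII, 39023 to 41149), had 177, 372 and 350. YHR020W, the prolyl enzyme (chromosome VIII, 143996 to 146062), had 41, 364 and 286. GUS1 and YHR020W were thus lowest in ribo depletion, the deepest table, whereas CRS1 and GLN4 were highest there.

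TYS1, the tyrosyl enzyme (YGR185C, chromosome VII, 866336 to 867520), had 178, 217 and 75 counts. WRS1, the tryptophanyl enzyme (YOL097C, chromosome XV, 136527 to 137825), had 218, 69 and 96. In CPM, WRS1 was nearly level over the tables, at 77.3, 79.8 and 87.5, while TYS1 was highest in TAP, at 63.1, 251 and 68.3. SES1, the seryl enzyme (YDR023W, chromosome IV, 489508 to 490896), had 13, 48 and 1 counts, and YDR341C, the arginyl enzyme (chromosome IV, 1151803 to 1153626), had 10, 36 and 41.

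The mitochondrial genes with the most counts in the poly(A) libraries were MSY1 and MSK1. MSY1, the mitochondrial tyrosyl enzyme (YPL097W, chromosome XVI, 364952 to 366430), had 756, 1194 and 1319 counts. MSK1, the lysyl enzyme (YNL073W, chromosome XIV, 488386 to 490116), had 239, 823 and 1277. ISM1, the isoleucyl enzyme (YPL040C, chromosome XVI, 475993 to 479001), had 282, 499 and 487. All 3 had more counts in each poly(A) library than in the deeper ribo depletion table.

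MSW1, the tryptophanyl enzyme (YDR268W, chromosome IV, 1004004 to 1005143), had 225, 121 and 245 counts. MSD1, the aspartyl enzyme (YPL104W, chromosome XVI, 355700 to 357676), had 4, 115 and 183. SLM5, the asparaginyl enzyme (YCR024C, chromosome III, 160744 to 162222), had 0, 139 and 160. MSD1 and SLM5 were thus counted almost only after poly(A) selection.

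The opposite order was seen for MSM1, the methionyl enzyme (YGR171C, chromosome VII, 840824 to 842551), with 629 counts in ribo depletion, 9 in TAP and 0 in CIP/TAP. MSR1, the arginyl enzyme (YHR091C, chromosome VIII, 284839 to 286770), had 188, 16 and 65. NAM2, the leucyl enzyme, which also acts in splicing of mitochondrial introns (YLR382C, chromosome XII, 882067 to 884751), had 127, 3 and 43. In counts, MSR1 and NAM2 were lowest in TAP and MSM1 in CIP/TAP.

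These 17 genes were also the ones with enough counts for a ratio, set at 50 counts summed over a pair of tables, in at least 1 comparison. The other 18 were not measured in any. Of these, 8 were at 0 in all 3 tables, a share of 22.9% against 39.6% of all identifiers. They were the cytosolic DED81, GRS1, HTS1, KRS1 and FRS2, for asparagine, glycine, histidine, lysine and the alpha subunit of the phenylalanyl enzyme, and the mitochondrial MSE1, MSF1 and DIA4, for glutamate, phenylalanine and serine. A further 6 had at least 10 counts in 1 table only. ALA1, the alanyl enzyme, had 1, 1 and 39 counts, the highest count among the 10 unmeasured genes that were not at 0 throughout. FRS1, the beta subunit of the phenylalanyl enzyme, had 0, 35 and 1. DPS1, for aspartate, had 0, 21 and 0, and VAS1, for valine, had 3, 17 and 0. These 3 passed 10 counts in TAP alone, while ALA1, ILS1 (isoleucine, 0, 0 and 17) and MST1 (mitochondrial threonine, 0, 0 and 12) passed it in CIP/TAP alone. CDC60, MES1, THS1 and AIM10, for leucine, methionine, threonine and mitochondrial proline, stayed under 10 in each table, with at most 8 for MES1 in TAP.

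Between genes, counts were also compared per kilobase of gene length. GLN4 remained highest, at 4823, 1317 and 1529 CPM per kb. In TAP it was followed by MSY1 (934 CPM per kb), MSK1 (549.9) and CRS1 (334), then by TYS1 (212), YHR020W (204), GUS1 (202) and ISM1 (192), which were close together. In ribo depletion CRS1 (410.0) came after GLN4, followed by MSY1 (181) and MSM1 (129).

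The cytosolic and mitochondrial enzymes were then set side by side. At least 10 counts were listed for 8 of 21 cytosolic genes in ribo depletion (38.1%), 11 in TAP (52.4%) and 9 in CIP/TAP (42.9%). The mitochondrial genes gave 7 of 14 (50%), 7 (50%) and 9 (64.3%). Over all identifiers these shares were 31.5%, 37.1% and 33.0%. Summed over each group and divided by the summed gene length, cytosolic identifiers held 294, 122 and 119.6 CPM per kb. Mitochondrial identifiers held 35.2, 137 and 140.2 CPM per kb. Since 5′ ends need not scale with gene length, the sums were also divided by the number of genes, which gave 614, 254.5 and 249.7 CPM per cytosolic gene and 62.0, 241 and 247 per mitochondrial gene. The order of the groups in the poly(A) libraries thus turned with the division by length. Without GLN4 the 20 other cytosolic genes held 28.3, 51.8 and 36.9 CPM per kb, under the mitochondrial value in each table, and 58.6, 107 and 76.4 CPM per gene, also under it. The order of the groups in ribo depletion thus turned when GLN4 alone was left out. No gene was left out of the mitochondrial group, in which MSY1 held 756 of the 2450 ribo depletion counts. Leaving out MSY1 as well would turn the order in ribo depletion back, per kb and per gene. The groups were not tested against each other, since genes are not replicates.

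For 14 amino acids the set held a cytosolic enzyme and a separate mitochondrial one, with FRS1 taken for the cytosolic phenylalanyl enzyme. Per kb, the mitochondrial identifier was higher for 8 amino acids in ribo depletion, 8 in TAP and 9 in CIP/TAP. The cytosolic identifier was higher for 3, 5 and 5, and both were at 0 for 3, 1 and 0. These tallies include pairs of few counts, such as MSM1 with 9 and MES1 with 8 in TAP. Where the higher identifier had at least 10 counts and was 2-fold above the other per kb, the mitochondrial one was higher for 6, 5 and 8 amino acids and the cytosolic one for 3, 5 and 2, which left TAP level. That tally counts phenylalanine as cytosolic in TAP through the 35 counts of FRS1, while FRS2 and MSF1 were at 0. With FRS2 in place of FRS1, TAP would not be level. Tryptophan fell just short of 2-fold in TAP, with 106.1 counts per kb for MSW1 and 53.1 for WRS1, so the level tally also rests on that margin. For lysine, KRS1 was at 0 throughout while MSK1 had 239, 823 and 1277 counts. For asparagine, DED81 was at 0 throughout while SLM5 had 139 and 160 in the poly(A) libraries. Proline and glutamate had the reverse order. The prolyl pair was YHR020W, with 364 counts in TAP, and AIM10, with 0. The glutamyl pair was GUS1, with 372 in TAP, and MSE1, with 0 in all 3 tables. For tyrosine both enzymes were counted, with 150.2, 183 and 63.3 counts per kb for TYS1 and 511, 807 and 892 for MSY1.

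The position of the upstream gene was compared for the synthetases because it went with the counts over the whole tables. None of the 35 genes overlapped another annotated gene. Among the 35, 12 had a divergent neighbour within 500 bp, at 223 to 493 bp, beside 1478 of all 5797 identifiers. They were 8 of the 21 cytosolic and 4 of the 14 mitochondrial genes. Of these 12, at least 10 counts were listed for 8 in ribo depletion (66.7%, 70.2% over all identifiers of that position), 10 in TAP (83.3%, 76.7%) and 9 in CIP/TAP (75%, 72.9%). Among the 10 with a divergent neighbour farther away, 3 had at least 10 counts in each table (30%), against 20.4%, 25.3% and 21.5% over all identifiers. Of the 13 with a tandem neighbour, on the same strand, 4 (30.8%), 5 (38.5%) and 6 (46.2%) did, against 17.2%, 22.5% and 18.2%. As over all identifiers, the share was highest with a close divergent neighbour in each table. The tandem class came above the farther divergent class among synthetases and below it over all identifiers, with too few synthetases in each class to read that order. The 12 with a close divergent neighbour held 96.4%, 93.5% and 92.4% of the synthetase counts, and 75.4%, 89.8% and 86.8% without GLN4. Over all identifiers that position held 84.9%, 85.4% and 86.7%.

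**Figure D2:**
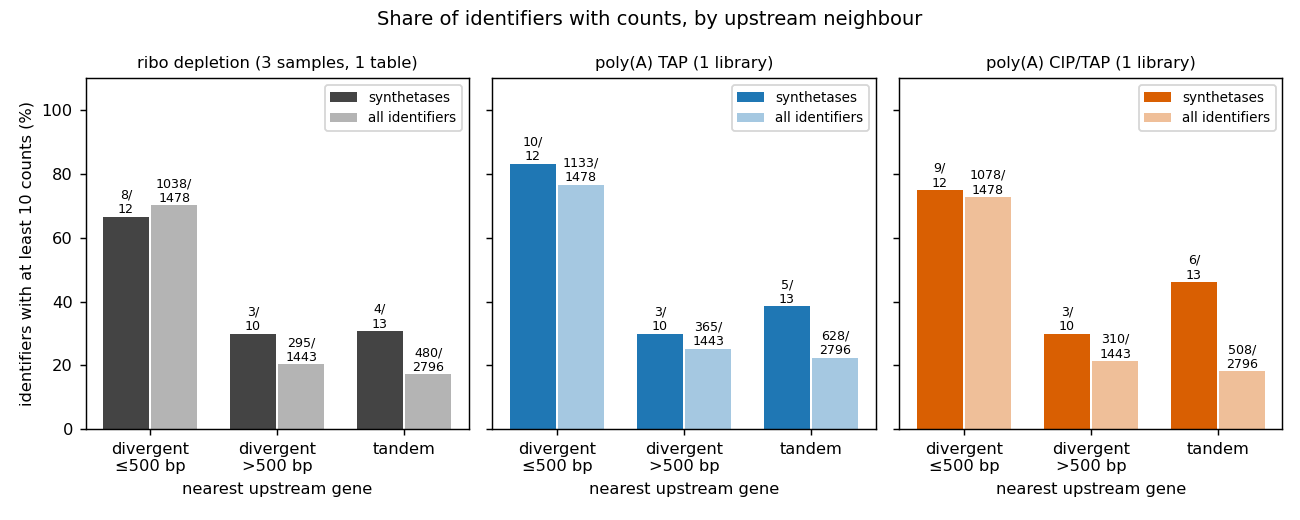
Share of identifiers with at least 10 counts, in percent, by the position of the nearest upstream gene, for synthetases (dark bars) and all identifiers (pale bars) in the 3 tables. Numbers over the bars are identifiers with at least 10 counts over identifiers in the class; in TAP, 10 of 12 synthetases with a divergent neighbour within 500 bp passed, and 5 of 13 with a tandem one.

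These 12 genes were then read beside their partners. GLN4 lay 295 bp from RPS28A, which encodes a small subunit ribosomal protein, whose own identifier had 2110, 271 and 345 counts. CRS1 lay 266 bp from RPA49, a subunit of RNA polymerase I, with 683, 311 and 331. In both pairs the synthetase had the higher count in all 3 tables. Per kb CRS1 stayed above RPA49, but GLN4 was above the short RPS28A in ribo depletion only, since RPS28A held 3666, 1537 and 1541 CPM per kb. GUS1 lay 242 bp from RAI1, a partner of the nuclear exonuclease Rat1, with 996, 1356 and 1540, and TYS1 lay 253 bp from TFG1, a TFIIF subunit, with 465, 701 and 540. There the synthetase had the lower count in every table.

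Other pairs changed order between tables. MSK1 lay 261 bp from MLF3, which had 1302, 47 and 37 counts, so MLF3 was higher in ribo depletion and MSK1 in both poly(A) libraries. ISM1 lay 223 bp from YPL039W, with 698, 28 and 43 counts, and showed the same exchange. FRS1 lay 431 bp from REX2, with 1, 0 and 0 counts, beside 0, 35 and 1 for FRS1. MSY1, at 224 bp from MGR2, and MSD1, at 287 bp from SYH1, exceeded their neighbours in each table. MGR2, a subunit of the mitochondrial import machinery, had 27, 146 and 7 counts, and SYH1 had 1, 2 and 0.

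DED81 and YHR020W formed the 1 divergent pair in which both genes are synthetases, for asparagine and proline, with 437 bp between them. All counts on this pair were listed under YHR020W. THS1, the threonyl enzyme, and AIR1, 493 bp apart, had at most 1 count each. Over the 12 genes, the synthetase exceeded its neighbour in 5 cases and was below it in 6 in ribo depletion, with 8 and 3 in both TAP and CIP/TAP. Per kb these were 5 and 6, 7 and 4, and 7 and 5.

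**Figure D3:**
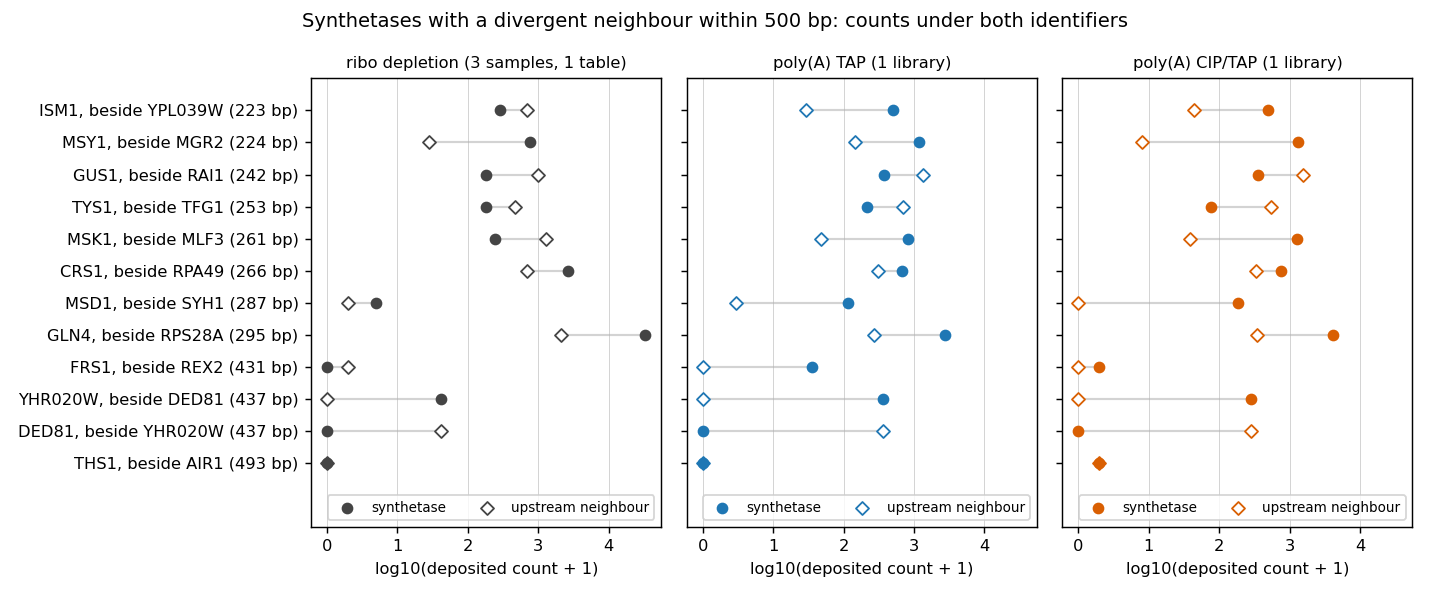
Counts (log10 of count + 1) under the 12 synthetases with a divergent neighbour within 500 bp (filled circles) and under that neighbour (open diamonds), in the 3 tables, ordered by the distance between the genes. MSK1 and ISM1 lie below their neighbours in ribo depletion and above them in both poly(A) libraries, and DED81 lies at 0 while YHR020W is counted.

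Among synthetases without a close divergent neighbour, MSM1, SLM5, WRS1, MSR1, MSW1 and NAM2 still had over 100 counts in a table. MSM1, SLM5, WRS1 and MSR1 lay behind tandem genes, namely YIP1 at 293 bp, YCR024C-B at 376 bp, COQ3 at 281 bp and the hexose transporter gene HXT4 at 310 bp. YCR024C-B, COQ3 and HXT4 were at 0 in all tables, and YIP1 had 14, 203 and 231 counts. MSW1 and NAM2 had divergent neighbours just past the limit, CIA1 at 501 bp with 0, 30 and 119 counts and SMC6 at 536 bp with 650, 79 and 63. HTS1, at 0, lay 505 bp from ARP7, a remodeller subunit gene with 488, 1 and 30 counts. KRS1, also at 0, lay 726 bp from EHD3, with 4823, 299 and 274. SES1 was the 1 synthetase whose nearest upstream gene was a tRNA gene, which was divergent at 637 bp.

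CIP/TAP against TAP compares poly(A) RNA with and without removal of uncapped 5′ phosphates. Ratios are log2 of scaled counts, and 2-fold was the limit for calling a difference. Of the 14 synthetases with at least 50 summed counts, 12 lay within 2-fold. MSR1 was higher in CIP/TAP, with 65 counts against 16, a log2 ratio of 1.81 (1.03 to 2.73). TYS1 was lower, with 75 against 217, at −1.71 (−2.11 to −1.33). The other 12 lay between −0.53 for YHR020W and 0.83 for MSW1. Over all 1679 identifiers measured, 22.2% were 2-fold higher and 15.6% lower, so 1 in each direction among 14 is no excess of calls over the background. The count of calls turned on the minimum. With at least 10 summed counts, 5 of 23 synthetases were higher and 6 lower, beside 24.6% and 30.9% of all 2530 identifiers. Of the 9 synthetases this added, ALA1, ILS1, MST1 and NAM2 had intervals wholly past 2-fold upward, and DPS1, FRS1, SES1 and VAS1 downward. The median of the 14 was 0.02 (−0.27 to 0.48), beside 0.16 for all identifiers. CRS1, YDR341C and SLM5, at 0.02, 0.00 and 0.02, changed sign with the scaling.

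TAP against ribo depletion compares RNA chosen by its tail with RNA freed of ribosomal RNA, and the enzyme treatment cannot be told apart from the selection. Of 16 synthetases measured, 8 were 2-fold higher in TAP and 6 lower. Over all 1646 identifiers 31.9% were higher and 38.0% lower. The median of the 16 was 0.89 (−3.09 to 2.27), beside −0.18 over all identifiers. When tables were scaled by their totals, the median over all identifiers shifted by 1.28, the synthetase split became 9 higher and 4 lower, and the split of all identifiers turned from 525 higher and 626 lower to 850 and 381. Values are therefore relative to the scaling by TMM (trimmed mean of M-values).

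Of the 8 higher synthetases, 5 were mitochondrial (9 measured) and 3 cytosolic (7 measured). SLM5, with 139 counts against 0, was 62.1-fold higher with the 0 set to the floor of 3 counts. The lower end of its log2 interval was 5.64. MSD1 was at 5.10 (3.87 to 7.17), resting on 4 counts in ribo depletion. MSK1 was at 2.20 (2.00 to 2.42), ISM1 at 1.24 (1.03 to 1.46) and MSY1 at 1.08 (0.95 to 1.21). The value of MSY1 fell under 2-fold with median-of-ratios size factors (0.95). Cytosolic genes in the same direction were YHR020W at 3.56 (3.10 to 4.07), SES1 at 2.27 (1.40 to 3.31) and GUS1 at 1.49 (1.23 to 1.76).

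The 6 lower synthetases divided into 3 of each group. MSM1 was at −5.63 (−6.84 to −4.77). NAM2, with 3 counts against 127, was at −4.77 (−7.28 to −3.40). MSR1 was at −3.09 (−3.97 to −2.40). These are the mitochondrial ones. Of the cytosolic ones, GLN4 was at −3.16 (−3.21 to −3.10), CRS1 at −1.58 (−1.71 to −1.46) and WRS1 at −1.23 (−1.65 to −0.84). With total counts CRS1 was within 2-fold (−0.30) and WRS1 was at 0.05. WRS1 was also within 2-fold with upper-quartile scaling (−0.86). TYS1 at 0.71 and MSW1 at −0.47 were within 2-fold. With total counts MSW1 turned to 0.81 and TYS1 passed the limit at 1.99, as it did with upper-quartile scaling at 1.07.

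CIP/TAP against ribo depletion used the same ribo depletion table, so it is no independent repeat of the TAP comparison. Of 16 synthetases measured, 8 were higher and 5 lower, beside 36.4% and 35.6% of all 1700 identifiers, and total counts gave 9 and 2. The median was 0.76 (−1.24 to 2.72), beside 0.02 over all identifiers, which shifted by 1.05 with total counts, where 868 identifiers were higher and 393 lower in place of 619 and 605. With the 0 set to the floor of 3 counts, SLM5 was 66.1-fold higher, with 160 counts against 0 and a log2 interval from 5.73. MSM1 was 169-fold lower on the same floor, with 0 against 629 and a log2 interval up to −7.10. The remaining higher genes ran from 1.10 for ISM1 to 5.66 for MSD1 (4.44 to 7.72). They included YHR020W at 3.10 (2.64 to 3.62), MSK1 at 2.72 (2.53 to 2.93), YDR341C at 2.29 (1.32 to 3.51), GUS1 at 1.29 (1.03 to 1.56) and MSY1 at 1.11 (0.98 to 1.24).

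GLN4 was lower in CIP/TAP than in ribo depletion, at −2.71 (−2.76 to −2.66), as was CRS1 at −1.49 (−1.60 to −1.37). NAM2 at −1.24 (−1.79 to −0.74) and MSR1 at −1.22 (−1.65 to −0.81) were lower by less than MSM1. With total counts CRS1, NAM2 and MSR1 were within 2-fold, at −0.43, −0.19 and −0.16. WRS1 at −0.87, TYS1 at −0.93 and MSW1 at 0.43 were within 2-fold. Total counts turned WRS1 and TYS1 to 0.18 and 0.12 and put MSW1 past the limit at 1.48.

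**Figure D4:**
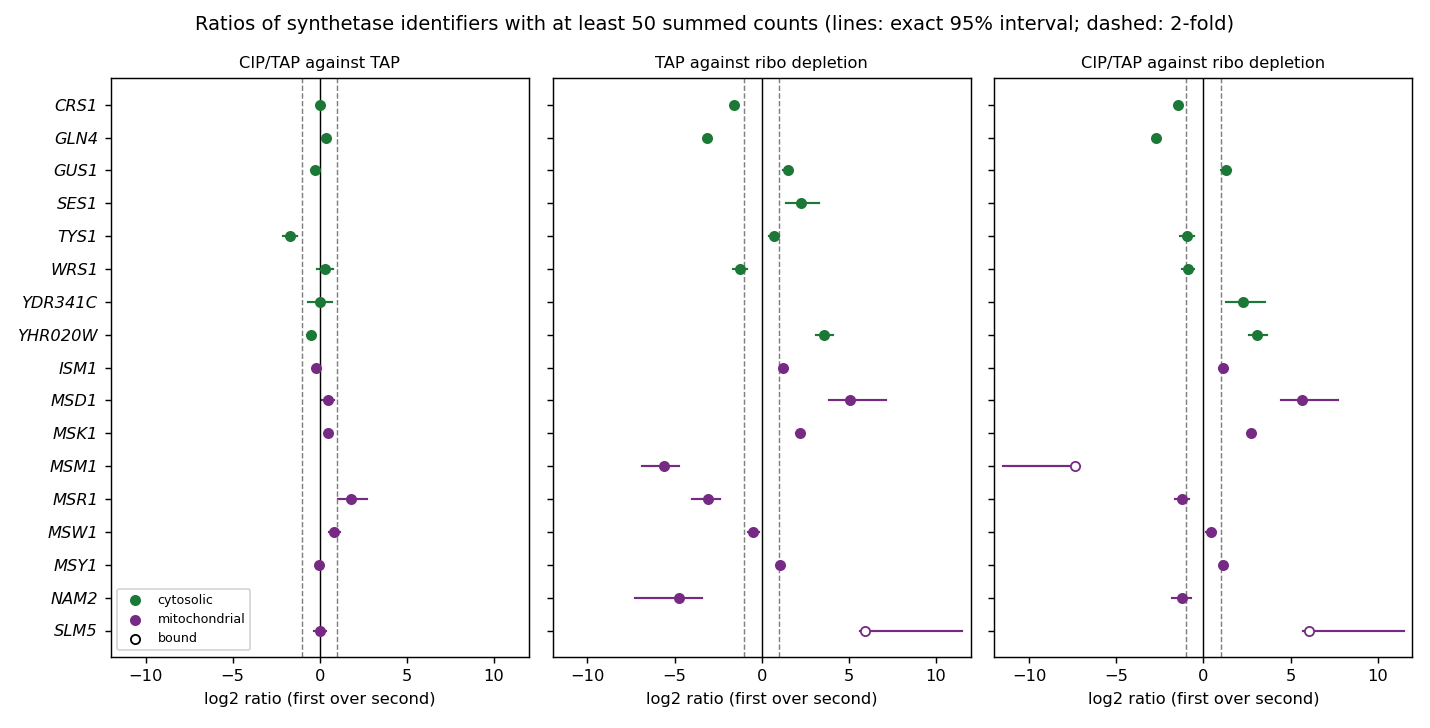
Log2 ratios of the synthetases with at least 50 summed counts in the 3 comparisons, cytosolic in green and mitochondrial in purple, with exact 95% intervals (lines, cut at the panel edge) and the 2-fold limits (dashed). Open circles are bounds from a floor of 3 counts, for genes with 0 counts on 1 side. Ratios of CIP/TAP over TAP lie within 2-fold except MSR1 and TYS1, and ratios over ribo depletion spread to both sides.

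Genes that act beside the synthetases, in charging, editing, export, delivery or sensing of tRNA, were read from a list of 18. At least 10 counts were listed for 6 in ribo depletion (33.3%), 7 in TAP (38.9%) and 6 in CIP/TAP (33.3%), close to the shares over all identifiers, and 8 were at 0 throughout. The mitochondrial amidotransferase that completes glutaminyl-tRNA has 3 subunits. GTF1 had 3634, 2225 and 3544 counts, HER2 had 3813, 259 and 671, and PET112 had 0 in each. The subunits of 1 enzyme thus differed widely under their identifiers.

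Of 6 listed genes measured for CIP/TAP against TAP, 3 were higher and 1 lower, beside 22.2% and 15.6% of all identifiers. FMT1, the mitochondrial initiator tRNA formyltransferase, was at 1.70 (1.26 to 2.18), GCN4, the activator of amino acid synthesis genes, at 1.27 (0.52 to 2.14) and HER2 at 1.19 (0.98 to 1.40). With upper-quartile scaling HER2 was at 0.98. ARC1, the cofactor that binds Mes1 and Gus1, was at −2.23 (−3.31 to −1.34), with 12 counts against 51. GTF1 at 0.49 and LOS1, a tRNA exporter gene, at −0.18 were within 2-fold.

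Against ribo depletion, 6 listed genes were measured in each comparison. In TAP 2 were higher and 3 lower, beside 31.9% and 38.0% of all identifiers. In CIP/TAP 2 were higher and 2 lower, beside 36.4% and 35.6%, so these counts lay near the background. LOS1 was higher in both, at 1.78 (1.34 to 2.26) in TAP and 1.67 (1.23 to 2.14) in CIP/TAP. ARC1, with 51 counts in TAP against 0, was 22.8-fold higher there with the 0 set to the floor of 3 counts. GCN4, with 53 in CIP/TAP against 0, was 21.9-fold higher on that floor. Their log2 intervals began at 4.16 and 4.10. HER2 was lower at −3.46 (−3.65 to −3.28) and −2.20 (−2.32 to −2.08). DTD1, a deacylase of D-aminoacyl-tRNA with 189 counts against 0, was 47.0-fold and 50.8-fold lower on the same floor. Its log2 intervals ended at −5.24 and −5.36. FMT1 was lower in TAP alone, at −1.65 (−2.12 to −1.22), and at 0.12 in CIP/TAP. With total counts these were −0.36 and 1.17. GTF1 was within 2-fold at −0.29 and 0.27, and turned to 0.08 with upper-quartile scaling and 1.00 with total counts in TAP and was at 1.33 with total counts in CIP/TAP.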

How the data were processed

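SMORE-seq counts were analysed for 5 of 17 samples. Per the file headers, the tables deposited by the authors hold counts per gene identifier; the values are whole numbers and were not normalized. Per the submitters' processing notes, the tools were bcl2fastq, featureCounts, bedtools and BWA 0.6.2, with the build sacCer3. Neither the counted feature nor the strand setting is stated, and neither is the way in which the 3 ribo depletion samples became 1 table.

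The members and lists were chosen with earlier results of these data known. Names and positions came from a RefSeq gene table of assembly R64, which matched all 35 synthetases, and strand from the letter W or C in systematic names. The upstream neighbour was the closest gene past the 5′ end. Each pair of tables was scaled over all identifiers with edgeR 4.0.16 (TMM, in R 4.3.3). With 0.5 added to each count, scaled counts were divided and the log2 was taken, for identifiers with at least 50 summed counts. Exact intervals came from scipy 1.17.1, and those of medians from order statistics. Bounds used a floor of 3 counts per table and leave out counting error in the other count. The calls were tested on counts simulated with counting error only, which does not cover variation between libraries. Genes named have at least 100 counts in a table or a 2-fold difference, with their upstream genes, and the rest are given by counts. Alternatives were other scalings, count minimums, an added count of 5 and other neighbour distances.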

Additional observations from a re-analysis of the deposited data

How the results depend on the processing

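No paired analysis was possible because each group had 1 table or library, and no replicate could be left out. A minimum of 50 in place of 10 counts left 5 cytosolic synthetases in ribo depletion and 6 in TAP. For CIP/TAP against TAP, at least 10 summed counts gave 5 higher and 6 lower, no minimum gave 7 and 7, and at least 200 left 0 higher. For TAP against ribo depletion, 200 counts gave 5 higher and no minimum 13, and WRS1 turned to 0.05 with total counts. For CIP/TAP against ribo depletion, 200 counts gave 5 higher, no minimum 15 higher and 8 lower, and total counts 2 lower. With 200 counts the synthetase median against ribo depletion fell from 0.89 to 0.12 in TAP. In CIP/TAP it changed sign, from 0.76 to −0.22. Both values lay within the intervals given for these medians. Shares over all identifiers were not taken at 200 counts or with no minimum. Those numbers of calls are therefore not read against a background. A divergent neighbour within 1000 bp was found for 22 synthetases. These alternatives change which genes pass or are measured, or shift all ratios. Why each value changed was not tested. Other scalings and a larger added count gave 184 values for single synthetases, of which 136 stayed within the counting interval of the reported ratio and 48 lay beyond it, 29 of them with total counts. A scaling changed the sign of 7 ratios, and 1 of these, WRS1 in TAP against ribo depletion, was 2-fold as reported. The planned promoter motif search was not run. In all, 18 synthetases had too few counts for a ratio at this depth, and the cause was not tested. In the 3 comparisons 14, 16 and 16 of the 35 synthetases were measured, beside 1679, 1646 and 1700 of all 5797 identifiers.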
